A study of Homo sapiens with 3 samples.

Results

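The ATP-binding cassette (ABC) genes were taken as all gene rows whose symbol joins ABC, a subfamily letter from A to G and a number, on the chromosomes themselves and not on alternate or unplaced sequences. This rule found 46 genes among the 39320 rows on chromosomes. They comprised 12 genes of subfamily A, 9 of B, 12 of C, 4 of D, 1 of E, 3 of F and 5 of G. Another 9 rows, on alternate copies of a locus, carried the names of 4 of these genes. All 9 were listed at 0 in every library and were left out. Among the 46 genes, ABCC13 is annotated in RefSeq as a transcribed pseudogene.

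ABC proteins share a nucleotide-binding domain that hydrolyses ATP. In subfamilies A, B, C, D and G this domain powers membrane transporters that move lipids, bile constituents, drugs, peptides, acyl-CoAs and haem precursors across the plasma membrane or the membranes of organelles, although a few members of C regulate channels instead. Proteins of subfamilies E and F have no membrane-spanning part and act on ribosomes in translation. In hepatocytes, transporters of the canalicular membrane, which faces the bile duct system, export bile salts, phosphatidylcholine, cholesterol and conjugated compounds into bile, while others at the basolateral membrane return such compounds to blood.

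Polyadenylated RNA was sequenced from 3 libraries labelled HepG2 (replicates 1 to 3), an established human liver cancer cell line, all of wild-type genotype and all of 1 condition. The labels do not say whether the replicates were separate cultures, so the spread between them may be technical. Values are TPM, transcript levels that the authors scaled for gene length and to an equal total per library, given as mean ± SD (n = 3). A gene with at least 1 TPM in all 3 libraries was counted as expressed.

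Read counts were not part of the tables used here, which leaves the depth unknown and the values without a counting error. The highest ratio of coverage to FPKM was 13.3, 12.8 and 11.5 in replicates 1, 2 and 3. Whether this ratio follows the depth was not tested. The labelled cell type was checked against hepatocyte markers. A list of 12 genes of secreted hepatocyte proteins was nearly absent. On it, 11 genes stayed below 1 TPM in each library, and 8, among them ALB and APOA1, were listed at 0 in all 3. The other, RBP4, had 11.0 ± 0.508 TPM, and the summed level of this list was 10.9 to 11.6 TPM. Of 3 hepatocyte uptake carriers, SLCO1B3 had 12.0 ± 0.667 TPM and SLCO1B1 and SLC10A1 were below 1 TPM. Of 4 epithelial genes, KRT8 and KRT18 had 2609.6 ± 28.6 and 2017 ± 102 TPM, CDH1 had 1.02 ± 0.0382 TPM and EPCAM was below 1 TPM, while of 4 mesenchymal genes VIM and CDH2 had 694 ± 48.1 and 27.1 ± 1.58 TPM, FN1 had 0.908 ± 0.120 TPM and SPARC was listed at 0. The 3 blood genes were below 1 TPM in every library, and of the 2 endothelial genes VWF had 1.36 ± 0.125 TPM and PECAM1 0.0159 ± 0.0217 TPM. All 8 housekeeping genes checked were expressed. Apart from RBP4 and SLCO1B3, the hepatocyte markers checked thus did not bear out the labelled cell type. The identity of the cells was not tested further, so the libraries are called here only by their label. The levels below describe these libraries and not HepG2 in general. Whether the absence of most hepatocyte markers bears on the levels of the liver transporters was not tested.

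The ABC genes covered the whole range from no detected RNA to high RNA. By mean TPM, 16 had at least 10 TPM, 10 had 1 to 10 TPM, 15 were above 0 and below 1 TPM, and 5 (ABCC8, ABCC12, ABCC13, ABCD2 and ABCG8) were listed at 0 in all 3 libraries. In the same order these classes held 34.8%, 21.7%, 32.6% and 10.9% of the ABC genes, and 41.5%, 18.8%, 19.7% and 20.0% of protein-coding rows. The ABC genes thus had the larger share above 0 and below 1 TPM and the smaller share listed at 0. Of the 46 genes, 26 (56.5%) were expressed, against 33.8% of all rows and 59.5% of the 18743 rows of protein-coding genes. At least 10 TPM in all 3 libraries was reached by 16 genes (34.8%), against 40.4% of protein-coding rows. These shares lay near or below those of protein-coding genes in general. In bulk RNA, fewer cells with a transcript and less of it per cell cannot be told apart.

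The median of the mean levels was 3.28 TPM over the 46 genes and 4.99 TPM over protein-coding rows. The median differed widely between subfamilies, from 86.7 TPM for the only gene of E and 67.8 TPM in F to 40.3 TPM in D, 9.45 TPM in B, 3.10 TPM in C, 0.893 TPM in A and 0.0387 TPM in G. All 4 genes of E and F, 3 of 4 in D, 6 of 9 in B, 6 of 12 in C, 6 of 12 in A and 1 of 5 in G were expressed. Among the 42 genes of the membrane subfamilies, 22 (52.4%) were expressed, with a median of 1.19 TPM.

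**Figure D1:**
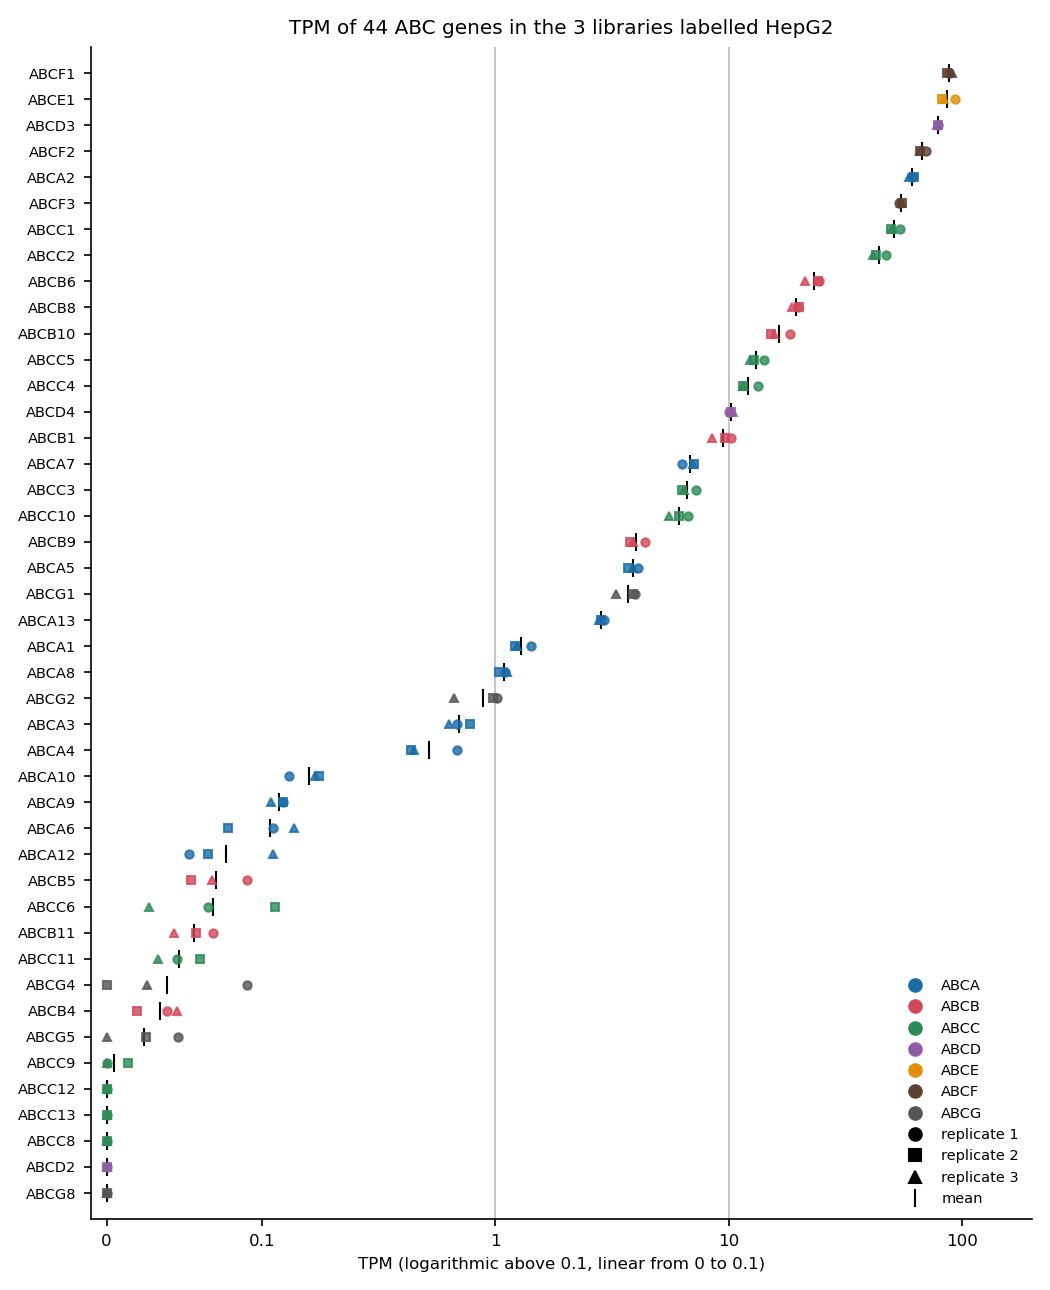
TPM of 44 of the 46 ABC genes in replicates 1 to 3 of the libraries labelled HepG2 (points, coloured by subfamily) with the mean (vertical tick), on an axis that is logarithmic above 0.1 TPM and linear from 0 to 0.1 TPM. From ABCF1 at 88.4 TPM the levels descend to 5 genes listed at 0, and the spread between libraries is visible mainly below 1 TPM.

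The sum over all 46 genes was 798, 765 and 756 TPM in replicates 1, 2 and 3 (773 ± 22.1 TPM). The 16 genes with at least 10 TPM, 34.8% of the family, held 93.7 ± 0.173% of this sum. They were picked by their level, and the same share over protein-coding rows was not calculated. Subfamily F contributed the most, with 211 ± 2.57 TPM from 3 genes, followed by D with 159 ± 2.11 TPM and C with 133 ± 8.21 TPM. Subfamilies B, E and A followed with 99.5 ± 5.07, 86.7 ± 5.95 and 78.6 ± 1.41 TPM, and the 5 genes of G together had 4.66 ± 0.605 TPM. By coverage, described below, B, E and A each held a larger share than C.

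**Figure D2:**
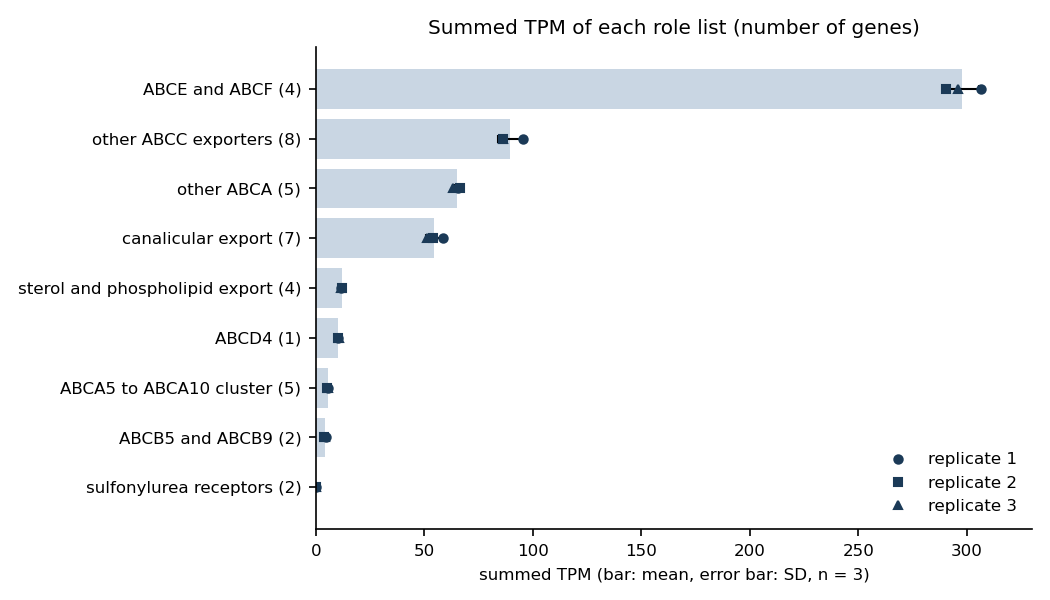
Summed TPM of the ABC genes of 9 role lists (bars, mean; error bars, SD, n = 3; points, replicates 1 to 3), with the number of genes in brackets. The 4 genes of ABCE and ABCF reach 298 TPM, the 7 genes of canalicular export 54.5 TPM and the 2 sulfonylurea receptors less than 0.1 TPM.

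The translation factors without membrane domains had the highest summed level of the role lists. ABCF1 (chr6:30571393-30591532, plus strand, GRCh38), which binds initiation factor eIF2 and ribosomes, had 88.4, 86.4 and 90.4 TPM in replicates 1, 2 and 3, above 91.4% of protein-coding rows. ABCE1 (chr4:145098004-145129524, plus strand), which splits ribosomes into subunits after termination, had 93.6, 82.7 and 84.0 TPM. The ranges of ABCF1 and ABCE1 overlapped, so their order could not be told from 3 libraries. ABCF2 and ABCF3, related ATPases of the same type, had 67.8 ± 2.32 and 54.6 ± 0.620 TPM, and every library of ABCF2 lay above every library of ABCF3. In coverage the ranges of ABCF2 and ABCF3 overlapped. Partners of these factors were expressed too. PELO and HBS1L, which act with ABCE1 in the rescue of stalled ribosomes, had 31.1 ± 0.788 and 22.5 ± 3.44 TPM, and EIF2S1, a subunit of eIF2, had 77.0 ± 4.27 TPM.

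Together the 4 factors had 306, 291 and 296 TPM, and the other 42 genes had 492, 475 and 461 TPM. The 4 factors thus held 38.5 ± 0.567% of the summed TPM of the ABC genes. The log2 ratio of the factors to the other genes, with a pseudocount of 1 TPM, was -0.68 ± 0.03 and was negative in 3 of 3 libraries (two-sided exact sign-flip permutation test, p = 0.25, adjusted p = 0.25 over 8 comparisons). With 3 libraries, 0.25 is the smallest p that this test allows, and the other 5 comparisons of pairs below gave the same p and adjusted p. In each of these 6 the direction was the same in 3 of 3 libraries.

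Among peroxisomal transporters, ABCD3 (chr1:94418086-94518663, plus strand), also known as PMP70, which carries long-chain and branched acyl-CoAs and bile acid precursors into peroxisomes, had 79.4, 79.0 and 78.3 TPM. ABCD2, another carrier of acyl-CoAs, was listed at 0 in all 3 libraries. ABCD3 varied little between libraries, and every library lay above every library of ABCF2 in TPM. In coverage the order was turned in each library, at 320, 293 and 259 for ABCD3 and 351, 316 and 285 for ABCF2. PEX3 and PEX19, which insert proteins into the peroxisomal membrane, had 12.2 ± 0.255 and 29.6 ± 1.42 TPM.

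Another gene of the subfamily, ABCD4, acts in lysosomes, where it releases cobalamin (vitamin B12) to the cytosol. It had 10.1, 10.3 and 10.5 TPM, below every library of ABCD3. LMBRD1 and MMACHC, which act with ABCD4 in this step, had 5.06 ± 0.0629 and 10.4 ± 0.796 TPM.

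Of the mitochondrial genes of subfamily B, ABCB6, ABCB8 and ABCB10 were each above 10 TPM in every library. ABCB6, a porphyrin transporter, had 24.4, 24.1 and 21.3 TPM. ABCB8 and ABCB10, both of the inner membrane, the latter important for haem synthesis, had 19.6 ± 0.762 and 16.4 ± 1.66 TPM. The libraries of ABCB6, ABCB8 and ABCB10 did not overlap between neighbours in this order, whereas in coverage those of ABCB6 and ABCB8 overlapped. All 4 genes of a list of iron-sulfur and haem synthesis were expressed, with 31.7 to 34.1 TPM for ISCU, 45.6 ± 1.51 TPM for NFS1, 109.8 ± 8.90 TPM for GLRX5 and 19.1 ± 4.22 TPM for FECH.

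The plasma membrane genes of subfamily B were lower. ABCB1, ABCB4, ABCB5 and ABCB11 together had 10.4, 9.78 and 8.67 TPM, below every library of ABCB6, of ABCB8 and of ABCB10. ABCB1 alone made up nearly all of this sum. ABCB9, a peptide transporter of lysosomes, had 4.02 ± 0.328 TPM, and ABCB5, known from skin and melanoma, had 0.0706 TPM with a range of 0.0541 to 0.0902 TPM.

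Genes of canalicular export, which carry the bile function of hepatocytes, differed widely among themselves. Of the 7 genes, ABCC2 and ABCB1 were expressed, ABCG2 reached 1 TPM in 1 library, and ABCB4, ABCB11, ABCG5 and ABCG8 stayed below 0.1 TPM in every library. ABCC2 (chr10:99782602-99853741, plus strand), also known as MRP2, which exports conjugated bilirubin and glutathione conjugates, had 47.3, 43.0 and 41.8 TPM and held most of the 54.5 ± 3.84 TPM of the group. ABCB1, the drug exporter P-glycoprotein, had 10.2, 9.65 and 8.52 TPM. Every library of ABCC2 was far above every library of ABCB1.

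ABCG2, a drug exporter also known as BCRP, had 1.01, 0.982 and 0.664 TPM, with replicate 3 the lowest. ABCB11, the bile salt export pump, had 0.0681, 0.0576 and 0.0434 TPM. ABCB4, which moves phosphatidylcholine into bile, had 0.0391, 0.0194 and 0.0450 TPM. None of these values can be given a counting error, and the exporters of bile salts and of phosphatidylcholine were near 0 in each library. ABCG5, which forms a sterol exporter with ABCG8, was listed at 0.0460, 0.0253 and 0 TPM, and ABCG8 at 0 in all 3 libraries.

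ABCB1 and ABCB4 are neighbours on the minus strand of chromosome 7, with 27140 bp between their rows (ABCB4 at chr7:87398988-87476722, ABCB1 at chr7:87503863-87713323, GRCh38). Their log2 ratio with a pseudocount of 1 TPM was 3.33 ± 0.13. This scale understates the difference because ABCB4 lies far below the pseudocount, and the ratio was 6.15 with a pseudocount of 0.1 TPM. SLC51A and SLC51B encode the partners of a basolateral bile acid exporter outside the ABC family. SLC51B had 14.7 ± 0.842 TPM, whereas SLC51A had 0.373 ± 0.0156 TPM and was below 1 TPM in every library.

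Of the other 8 exporters of subfamily C, 5 were expressed. ABCC1 (chr16:15949616-16143062, plus strand), also known as MRP1, which exports glutathione conjugates and leukotriene C4, had 54.1, 49.5 and 50.3 TPM. ABCC5 and ABCC4, both exporters of cyclic nucleotides, had 13.1 ± 0.945 and 12.2 ± 1.07 TPM, and their ranges overlapped. ABCC3, a basolateral exporter of glucuronides, had 7.22, 6.29 and 6.41 TPM, and ABCC10, a drug exporter, had 6.71, 6.13 and 5.58 TPM, also with overlap. ABCC6, needed for the release of ATP and mutated in pseudoxanthoma elasticum, had 0.0651, 0.113 and 0.0274 TPM. ABCC11, known for its part in earwax type, had 0.0463 TPM, with a range of 0.0331 to 0.0604 TPM, and ABCC12 was listed at 0.

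ABCC1 and ABCC2, the highest genes of the subfamily, did not overlap in TPM, with a log2 ratio of 0.22 ± 0.04 or 1.17 times the TPM of ABCC2. By coverage, a deposited depth value whose calculation per gene is not given in the sources used here, the order was turned, at 96.0, 86.1 and 78.4 for ABCC1 and 227, 203 and 175 for ABCC2, a log2 ratio of -1.20 ± 0.05. ABCC3 was below ABCC4 in TPM (log2 ratio -0.78 ± 0.02) and above it in coverage (27.6, 27.8 and 24.2 against 15.7, 13.2 and 11.9, log2 ratio 0.92 ± 0.12). The direction of both pairs therefore depended on which deposited column was read.

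ABCC8 and ABCC9, the sulfonylurea receptors, regulate ATP-sensitive potassium channels of pancreatic beta cells and of muscle. ABCC8 was listed at 0, and ABCC9 had 0.0140 TPM in replicate 2 and 0 in the others. The pore genes of these channels were no higher than 0.0284 TPM in any library, with KCNJ8 listed at 0 and KCNJ11 at 0.0148 ± 0.0142 TPM.

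Of the 4 genes of cholesterol and phospholipid export, 3 were expressed, at low levels, and the 4 together had 11.9 ± 0.297 TPM. ABCA7, a phospholipid transporter, had 6.32, 7.08 and 7.06 TPM. ABCG1, which passes cholesterol to high-density lipoprotein, had 3.96, 3.90 and 3.29 TPM. ABCA1, which loads lipid onto apolipoprotein A-I and is mutated in Tangier disease, had 1.42, 1.21 and 1.24 TPM. APOA1, the gene of that apolipoprotein, was listed at 0. ABCA1 had 0.670, 0.580 and 0.595 FPKM and would not pass a minimum of 1 FPKM. ABCG4, a relative of ABCG1, was listed at 0.0902, 0 and 0.0260 TPM.

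The log2 ratio of ABCA1 to ABCG1 was -1.04 ± 0.11 in TPM, without overlap. In coverage the genes had 2.62, 2.19 and 2.01 against 2.54, 2.38 and 1.83, and they overlapped, with a log2 ratio of 0.011 (exact p = 0.75). ABCG1 exceeded ABCG2 by a log2 ratio of 1.32 ± 0.04 in TPM, and of 0.84 ± 0.03 in coverage. No library of ABCG2 reached any library of ABCG1.

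In subfamily A, a single gene accounted for most RNA. ABCA2 (chr9:137007234-137028922, minus strand), a lipid transporter of lysosomes that is best known from brain and myelin, had 61.2, 62.4 and 59.4 TPM, of 78.6 ± 1.41 TPM for all 12 genes. ABCA13, a very large member, had 2.84 ± 0.0734 TPM. ABCA3, the transporter of lung surfactant lipids, had 0.685, 0.779 and 0.635 TPM. ABCA4, the retinal transporter mutated in Stargardt disease, had 0.682, 0.433 and 0.447 TPM. ABCA12, the ceramide transporter of skin, had 0.0530, 0.0652 and 0.111 TPM.

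A further 5 genes of this subfamily, ABCA8, ABCA9, ABCA6, ABCA10 and ABCA5, lie side by side at chr17:68867285-69327133, all on the minus strand. The genes at the ends of the cluster were expressed and those inside it were not. ABCA5 had 4.10, 3.70 and 3.90 TPM and ABCA8 had 1.10, 1.04 and 1.12 TPM. Between them, ABCA9, ABCA6 and ABCA10 had 0.118 ± 0.00803, 0.109 ± 0.0293 and 0.158 ± 0.0244 TPM. ABCA8 passed the minimum of 1 TPM narrowly and, with 0.519, 0.497 and 0.536 FPKM, would not pass a minimum of 1 FPKM. The ranges of ABCA9 and ABCA6, whose rows overlap over 16935 bp, also overlapped. The rows of ABCA10 and ABCA5 share 505 bp, and ABCA5 had 24.6 times the TPM of ABCA10.

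Other ABC genes also lie beside a gene of the family. ABCC1 and ABCC6 are 6502 bp apart on chromosome 16, tail to tail, with 51.3 ± 2.45 and 0.0685 ± 0.0430 TPM. ABCC12 and ABCC11 are 18071 bp apart on the minus strand of the same chromosome, and both were below 0.1 TPM. ABCG5 and ABCG8 overlap over 6899 bp on opposite strands of chromosome 2, and neither reached 0.1 TPM.

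Rows of 23 of the 46 genes overlapped another gene row, and in 9 of these the other row had a mean of at least 1 TPM. In 7 of the 9 it lay on the opposite strand. The strand setting of the counting is not given in the sources used here, so reads of such partners could not be told apart. The same shares over all gene rows were not counted, so these counts are not read as a trait of the family. For expressed genes the shared stretch was small or the partner lower. The stretches are counted over whole gene spans, introns included, and do not give the number of shared reads. ABCE1 shares 538 bp with ANAPC10 (9.07 ± 0.702 TPM), ABCB1 shares 85668 bp with RUNDC3B (1.04 ± 0.0436 TPM), and ABCB9 shares 458 bp with OGFOD2 (16.1 ± 1.14 TPM). The traces of ABCC11, ABCB4 and ABCG5 are uncertain in this respect, since they overlap LONP2 (27.2 ± 2.09 TPM), CROT (5.78 ± 0.627 TPM) and DYNC2LI1 (6.49 ± 1.08 TPM) over 5807, 809 and 22167 bp. ABCC6 is also uncertain, because near-identical pseudogene copies exist.

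The levels of the expressed genes varied little between libraries. For the 26 genes at or above a mean of 1 TPM, the median coefficient of variation was 5.73%, from 0.661% in ABCD3 to 10.1% in ABCB10, against a median of 6.12% over all rows with this mean. None of the 26 had a range of log2(TPM + 1) above 1 between libraries, against 1.26% of 13753 rows. Replicate 1 was the highest library in 18 of the 26 genes (69.2%), and it was also the highest in 62.5% of 11315 protein-coding rows. Among the 41 genes above 0, ordered by mean TPM, 21 of 40 neighbouring pairs had overlapping libraries, so their order was not resolved beyond the replicate spread.

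Coverage gave another picture of some genes. TPM and FPKM are proportional within a library, whereas the ratio of coverage to FPKM differed between genes in every library. Relative to the highest ratio in a library, it was 0.983 for ABCF1 and 1.00 for ABCA3, and 0.101 for ABCG1, 0.153 for ABCG2, 0.187 for ABCC4, 0.211 for ABCB9, 0.283 for ABCC1 and 0.294 for ABCA1. ABCC1 ranked 8th of the family by TPM and 12th by coverage, ABCC4 15th and 21st, and ABCG1 23rd and 28th. ABCD3 moved from rank 3 to rank 6, and ABCB1 from rank 17 to rank 14. Subfamily C held 17.2 ± 0.565% of the summed TPM of the family and 10.6 ± 0.255% of its summed coverage. Subfamily G held 0.602 ± 0.0664% and 0.0893 ± 0.0129%, and subfamily F 27.3 ± 0.673% and 30.3 ± 0.748%. Subfamilies B, E and A held 13.9 ± 0.355%, 13.1 ± 0.555% and 11.9 ± 0.357% of the summed coverage. Each was above C by coverage and below C by TPM. The cause of these unequal ratios was not tested.

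**Figure D3:**
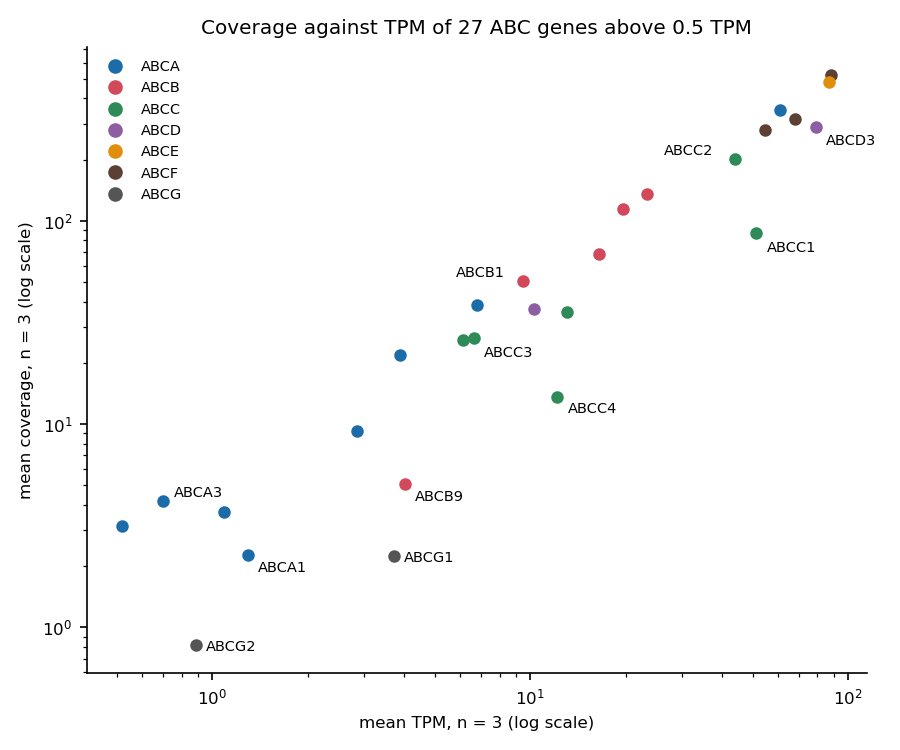
Mean coverage (vertical, log scale) against mean TPM (horizontal, log scale) of ABC genes above 0.5 TPM, 1 point per gene, coloured by subfamily (n = 3 libraries). ABCC1, ABCC4, ABCB9, ABCG1, ABCG2 and ABCA1 lie below the band of the other genes, and ABCC1 lies below ABCC2 although it is further right.

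Upstream sequence was then compared with the levels. For each gene start that RefSeq gives (GRCh38.p14), the 250 bases before the start were read, and 35 of the 46 genes had at least 1 such window (53 windows). Genes without a window included ABCC1, ABCC3, ABCG1, ABCA8, ABCA4, ABCB5, ABCB4, ABCC8 and ABCC13. CpG dinucleotides are depleted from most of the human genome but not from CpG islands, which surround the starts of many widely expressed genes. A window was called CpG-rich when the observed number of CG was at least 0.6 of that expected from its C and G content and its G + C content was at least 50%. The following 6 windows are shown 5′ to 3′. They come from high genes with and without CpG enrichment, and from low and undetected genes without it. CpG-rich windows of low genes also exist, as given below, but none is shown. Capitals mark CG, and in ABCC2 the letters TATAAA.
ABCD3 (chr1:94418139-94418388, plus strand): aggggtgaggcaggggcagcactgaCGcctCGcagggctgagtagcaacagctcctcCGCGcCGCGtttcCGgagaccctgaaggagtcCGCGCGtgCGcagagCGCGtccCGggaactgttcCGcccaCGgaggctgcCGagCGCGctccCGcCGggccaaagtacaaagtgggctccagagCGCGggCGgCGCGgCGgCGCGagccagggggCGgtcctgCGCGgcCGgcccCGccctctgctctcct
ABCF2 (chr7:151227206-151227455, minus strand): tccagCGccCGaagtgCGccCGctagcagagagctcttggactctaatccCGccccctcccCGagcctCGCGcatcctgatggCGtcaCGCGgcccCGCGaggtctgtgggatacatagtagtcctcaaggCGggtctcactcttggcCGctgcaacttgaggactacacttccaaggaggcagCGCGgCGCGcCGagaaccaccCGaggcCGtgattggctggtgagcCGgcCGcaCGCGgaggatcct
ABCC2 (chr10:99782390-99782639, plus strand): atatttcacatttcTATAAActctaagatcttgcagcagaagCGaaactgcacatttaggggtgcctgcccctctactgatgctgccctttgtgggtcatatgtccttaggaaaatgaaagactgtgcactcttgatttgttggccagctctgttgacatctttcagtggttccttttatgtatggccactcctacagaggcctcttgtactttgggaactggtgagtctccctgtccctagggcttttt
ABCB11 (chr2:169031325-169031574, minus strand): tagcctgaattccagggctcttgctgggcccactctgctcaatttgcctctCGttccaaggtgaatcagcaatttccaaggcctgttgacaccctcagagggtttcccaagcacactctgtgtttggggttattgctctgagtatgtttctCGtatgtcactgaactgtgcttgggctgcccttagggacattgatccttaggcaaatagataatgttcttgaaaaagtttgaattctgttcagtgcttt
ABCA6 (chr17:69141896-69142145, minus strand): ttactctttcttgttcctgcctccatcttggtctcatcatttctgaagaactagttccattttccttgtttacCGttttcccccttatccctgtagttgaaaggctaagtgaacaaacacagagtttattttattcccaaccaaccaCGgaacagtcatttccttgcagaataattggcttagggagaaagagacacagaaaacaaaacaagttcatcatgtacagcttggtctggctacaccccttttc
ABCD2 (chr12:39619804-39620053, minus strand): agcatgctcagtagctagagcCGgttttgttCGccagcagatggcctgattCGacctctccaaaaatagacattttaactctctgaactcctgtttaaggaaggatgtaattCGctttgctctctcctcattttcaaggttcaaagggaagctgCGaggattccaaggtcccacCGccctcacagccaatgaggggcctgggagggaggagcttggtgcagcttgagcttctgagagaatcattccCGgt

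Each of these windows overlaps the deposited row of its gene. The windows of ABCD3 and ABCF2, at 78.9 and 67.8 TPM, hold 34 and 26 CG, or 0.984 and 0.947 of the expected number. The window of ABCC2, at 44.0 TPM, holds 1 CG (0.0770 of the expected number), fewer than that of ABCB11, which has 2 (0.149) at 0.0564 TPM. The window of ABCA6 holds 2 CG (0.204) and that of ABCD2 holds 7 (0.434), the latter with a gene listed at 0. ABCD2 has 2 windows, and the one not shown holds 0 CG.

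Among genes with at least 10 TPM, 11 of 13 (84.6%) had a CpG-rich window, and the exceptions were ABCC2 and ABCB8. Among those with 1 to 10 TPM, 6 of 7 (85.7%) had one, the exception being ABCA13. Below 1 TPM the count was 5 of 15 (33.3%), made up of ABCG2, ABCA3, ABCC6, ABCC11 and ABCG4. Among all protein-coding genes with a window, the shares in the same level classes were 89.1%, 77.5% and 35.5%. Of all 35116 windows in the table, 45.0% were CpG-rich.

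Motifs were searched on both strands in the same windows. TATAAA was found in windows of 6 of 35 ABC genes (17.1%) and of 11.7% of protein-coding genes, and in 10.7% of all windows. Its first base lay at position -236 in ABCC2, -28 in ABCC5 and -31 in ABCA1, counted back from -1 at the base before the start. GGGCGG, the GC box, was found in 21 of 35 ABC genes (60.0%) and in 63.0% of protein-coding genes, and in 42.6% of all windows. A match of letters does not show that a factor binds there. ABCG5 and ABCG8 are read in opposite directions from a shared stretch, and their windows overlap by 131 bases.

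**Figure D4:**
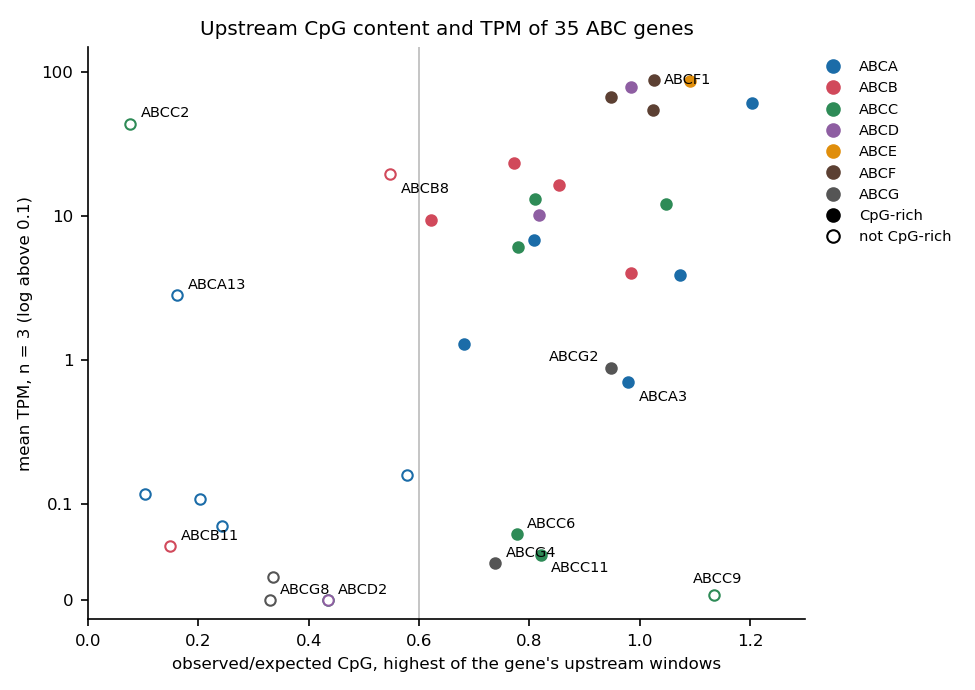
Mean TPM (vertical, logarithmic above 0.1 TPM, n = 3) of 35 ABC genes against the observed over expected CpG of the upstream window where it is highest (horizontal, no unit), coloured by subfamily, with filled points for CpG-rich genes and a line at 0.6. ABCC2 stands alone at the upper left with 0.0770 and 44.0 TPM.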

How the data were processed

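Polyadenylated RNA of 3 libraries labelled HepG2 (1 condition) was analysed. The authors filtered 150 bp paired-end reads and mapped them to GRCh38, and the submitters' processing notes list FastQC 0.11.8, Trim Galore 0.6.2, STAR 2.6.1a and StringTie. The annotation and strand setting are not given in the sources used here. The TPM deposited by the authors is scaled for gene length and to the same total in each library. The FPKM deposited by the authors is proportional to TPM within a library. How the coverage that the authors deposited was calculated per gene is not given in the sources used here, and its ratio to FPKM differs between genes and libraries. Without counts the depth is unknown, and the SD of the 3 libraries is the only measure of precision.

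Tables were merged on gene, strand and coordinates (43389 rows joined, 6 not), and rows on alternate or unplaced sequences were left out (39320 rows kept). Gene types and upstream windows were taken from RefSeq (GRCh38.p14). TPM was used as deposited, with 1 TPM in all 3 libraries as the minimum for expression. A total of 8 pairs of genes or groups were compared within each library by the log2 ratio after 1 TPM was added to each side. An exact sign-flip permutation test (two-sided) with Benjamini-Hochberg adjustment was used. The range calculation was checked on simulated data, and the test only on fixed example values. The results of 2 of these pairs and the values of some genes of the family are not reported here, although all 46 genes enter the counts, medians and sums. The other genes are named, together with listed partners, markers and overlapping rows. The members, lists and pairs were chosen with earlier results of these data known. Alternatives were leaving out each replicate, other minimums and pseudocounts, FPKM or coverage, scaling by medians of ratios, and removal of mitochondrially encoded genes before scaling. Protein sequences were not used here. Calculations used Python 3.11.15, numpy 2.4.6, pandas 2.3.3, scipy 1.17.1 and matplotlib 3.10.9.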

Additional observations from a re-analysis of the deposited data

How the results depend on the processing

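Reading coverage in place of TPM reversed 3 of the 6 log2 ratios reported, to -1.20 for ABCC1 against ABCC2, 0.011 for ABCA1 against ABCG1 and 0.92 for ABCC3 against ABCC4, and the cause was not tested. The other 3 kept their direction under every alternative run, but only coverage could have turned it. Leaving out a replicate, another pseudocount, FPKM or rescaling cannot turn a direction that is the same in all 3 libraries. Mitochondrially encoded genes took 19.9% to 20.2% of all TPM, and scaling without them raised the median of the ABC genes to 4.10 TPM and the sums of subfamilies A to G to 98.4, 124.5, 167, 199.5, 108.5, 264 and 5.84 TPM, since the same total is then shared by fewer genes. Each of the 6 log2 ratios kept its direction under that scaling, which it had to, since all TPM of a library change by the same factor. For the ratios, that scaling was chosen after seeing the data, as was the share of each subfamily by coverage. A minimum of 10 TPM left 16 expressed genes, a minimum of 0.1 TPM gave 31 and 1 FPKM gave 24, against 26 at 1 TPM. Median-of-ratios scaling (factors 1.03, 0.995 and 0.976) moved no mean of a gene above 0 by more than its SD. Single libraries decided the lowest means. Without replicate 1, ABCG4 fell from 0.0387 to 0.0130 TPM and ABCG5 from 0.0238 to 0.0127 TPM, and without replicate 3 ABCG5 had 0.0356 TPM. Without replicate 2, ABCG4 had 0.0581 TPM and ABCC9 was at 0, which made 6 genes listed at 0 in place of 5, and without either other replicate ABCC9 had 0.00702 TPM. No paired analysis was possible because the libraries form 1 condition, so replicate numbers pair no samples between groups, and the log2 ratios compare genes within a library. Without counts, levels below 1 TPM carry no counting error, and differences among the 20 genes at such levels cannot be judged.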

Other observations

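Rows with an ABC symbol that the rule does not take were mostly low. The transcribed pseudogene ABCA11P was the exception, with 7.15, 7.92 and 7.65 TPM (7.57 ± 0.389 TPM), more than 11 of the 12 genes of subfamily A. Overlap of the ABCA11P row with other gene rows was not examined. The divergent transcript ABCF1-DT had 0.786 ± 0.0978 TPM beside 88.4 ± 2.01 TPM of ABCF1, and the pseudogene ABCA17P had 0.333 ± 0.0730 TPM. ABCC5-AS1, antisense to ABCC5, was listed at 0.652, 0 and 0.284 TPM. ABCC6P1 had 0.0181 TPM from 1 library, and ABCC6P2 and ABCA9-AS1 were listed at 0 in all 3.

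TAP1 and TAP2 are ABC genes of subfamily B with other symbols, whose products form the peptide transporter of antigen presentation. TAP1 had 29.5, 27.5 and 28.3 TPM and TAP2 had 29.1, 27.6 and 27.9 TPM. Their ranges overlapped, and both lay above every library of ABCB6, ABCB8 and ABCB10. TAPBP, the gene of tapasin, which joins this transporter to class I molecules, had 38.2, 37.9 and 32.4 TPM.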
